A study of Drosophila melanogaster with 30 samples.

Results

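Eip75B, Eip74EF, ftz-f1 and Eip93F are transcription factor genes of the ecdysone response, and their messenger RNA was measured in leg discs of the Drosophila prothorax, the imaginal tissue of the foremost legs. The members were all probe sets that the authors' deposited tables name for these 4 genes. They covered 4 of 3177 named genes and 7 of the 18769 probe sets tested: 3 for Eip75B, 1 for Eip74EF, 2 for ftz-f1 and 1 for Eip93F. Eip74EF, Eip75B and ftz-f1 lie on chromosome arm 3L in that order, with 48 and 59 protein-coding genes between neighbours in RefSeq's Release 6 annotation, and Eip93F lies on 3R.

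Ecdysone is the steroid hormone that times moulting and metamorphosis in insects. It acts through a heterodimer of the nuclear receptors EcR and usp, which switches on a first tier of transcription factors that in turn control later tiers and the effector genes of each tissue. Eip75B encodes a haem-binding nuclear receptor of the first tier and Eip74EF an ETS-domain factor of the same tier. ftz-f1 encodes a nuclear receptor that is expressed as the hormone declines between pulses and makes tissues competent to respond to the next one. Eip93F encodes a helix-turn-helix factor that acts late, at the transition to pupal and adult fates. Injury to a larval disc is known to delay metamorphosis, through the secreted peptide Ilp8.

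The series held 30 samples in 10 groups of 3, called biological replicates in their titles, from male larvae aged 100 h. In 4 groups discs had been cut, and either the anterior 1/4 or the posterior 3/4 was kept for 12 or 24 h in the abdomen of an adult female before GFP-positive cells were isolated from it. Another 4 groups were the same regions of uncut discs cultured for 12 or 24 h, and the last 2 were these regions of uncut discs that were not cultured (0 h). All animals, controls included, were w/Y, heterozygous for AyGAL4, UAS-GFP (the label's AyGAL4, UAS-GFP/+) and carried the driver puc[E69-I]-GAL4 with UAS-flp (puc[E69-I]-GAL4/UAS-flp). In them, cells that expressed puc, a target of JNK signalling, are marked with GFP together with their progeny. Cut samples were therefore selected on this marker and uncut samples, per the labels, were not, so the cut and the selection cannot be told apart. The host is an adult fly with its own hormone state, which was not measured. Uncultured discs were sampled at 0 h only, so culture in the host, its procedure and the 12 or 24 h elapsed cannot be told apart. In such pooled tissue RNA, fewer cells of a type and less RNA per cell cannot be told apart either. The labels do not give the number of discs in a sample or say which samples were prepared together.

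The deposited values carry a feature that decides which comparisons can be read. Every probe set averaged 0 within each of 3 sets of samples, so that 3 singular values of the value table were 0. The first set (15 samples) held cut anterior samples of both times with all uncut posterior samples. The second set (9 samples) held cut posterior samples of 24 h with uncut anterior samples of 24 h and 0 h, and the third set (6 samples) held cut posterior samples with uncut anterior samples of 12 h. A difference between groups of different sets carries an unknown offset for each probe set, and there the set and the group cannot be told apart. This holds for 16 of the 21 planned comparisons, among them every cut against uncut comparison within a region, and the log fold changes of the authors' deposited tables carry the same offsets. The offset cancels in the cultures of posterior tissue and in the 24 h culture of anterior tissue. It also cancels in the mean of the anterior and posterior cut effects, in the mean difference between regions, and in cut against uncut samples of one set, which come from opposite regions. These 11 comparisons were added after the data had been seen. The labels name no batch, and the origin of the sets is not given in the sources used here. In each set the cut and the uncut samples bear opposite region labels. An exchange of the region labels of the cut or of the uncut samples was not tested, as no compartment gene is named here. The mean cut effects would be the same under one, whereas the values within a set would then be cut effects of a single region, the mean regional differences would rest on differences between cut effects, and the region named for the exchanged samples would be the other one.

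As a check of the tissue and the treatment, Ilp8 was 2.56 higher in cut than in uncut samples at 12 h and 3.60 higher at 24 h (log2, mean of both regions), and the 3 probe sets of Mmp1, a matrix protease of wounded discs, were higher by 0.52 to 1.74 and by 1.17 to 1.84. All 4 probe sets were also higher in uncut posterior tissue cultured for 12 h than in uncultured posterior tissue (median 1.55, 20.2% of all probe sets called). After 24 h of culture 1 of the 4 was higher in posterior tissue (median 0.67) and 0 in anterior tissue (-0.06), against 24.1% and 32.1% of all probe sets. Scr, which marks the prothoracic leg disc, was the only one of 6 disc genes, and none of 5 compartment genes, named in the tables. It was lower in cut than in uncut samples, by -0.58 at 12 h and -0.38 at 24 h (mean of both regions), and both values passed the test. Because only probe sets of the tables carry a name here, a gene that is absent from them is not named here and is not thereby unchanged. A probe set with a name had passed the authors' threshold for cutting or for culture, so the choice itself raises the share called among members and listed genes over that of all probe sets, and nothing is read from that excess. The values are log2 intensities without an absolute level, so no level is compared between genes or between probe sets. A value of 1 means that a probe set was at double the geometric mean of its own sample set. Differences were tested with limma over all 18769 probe sets, with Benjamini-Hochberg adjusted p under 0.05 as the threshold, and brackets give 95% confidence intervals.

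**Figure D1:**
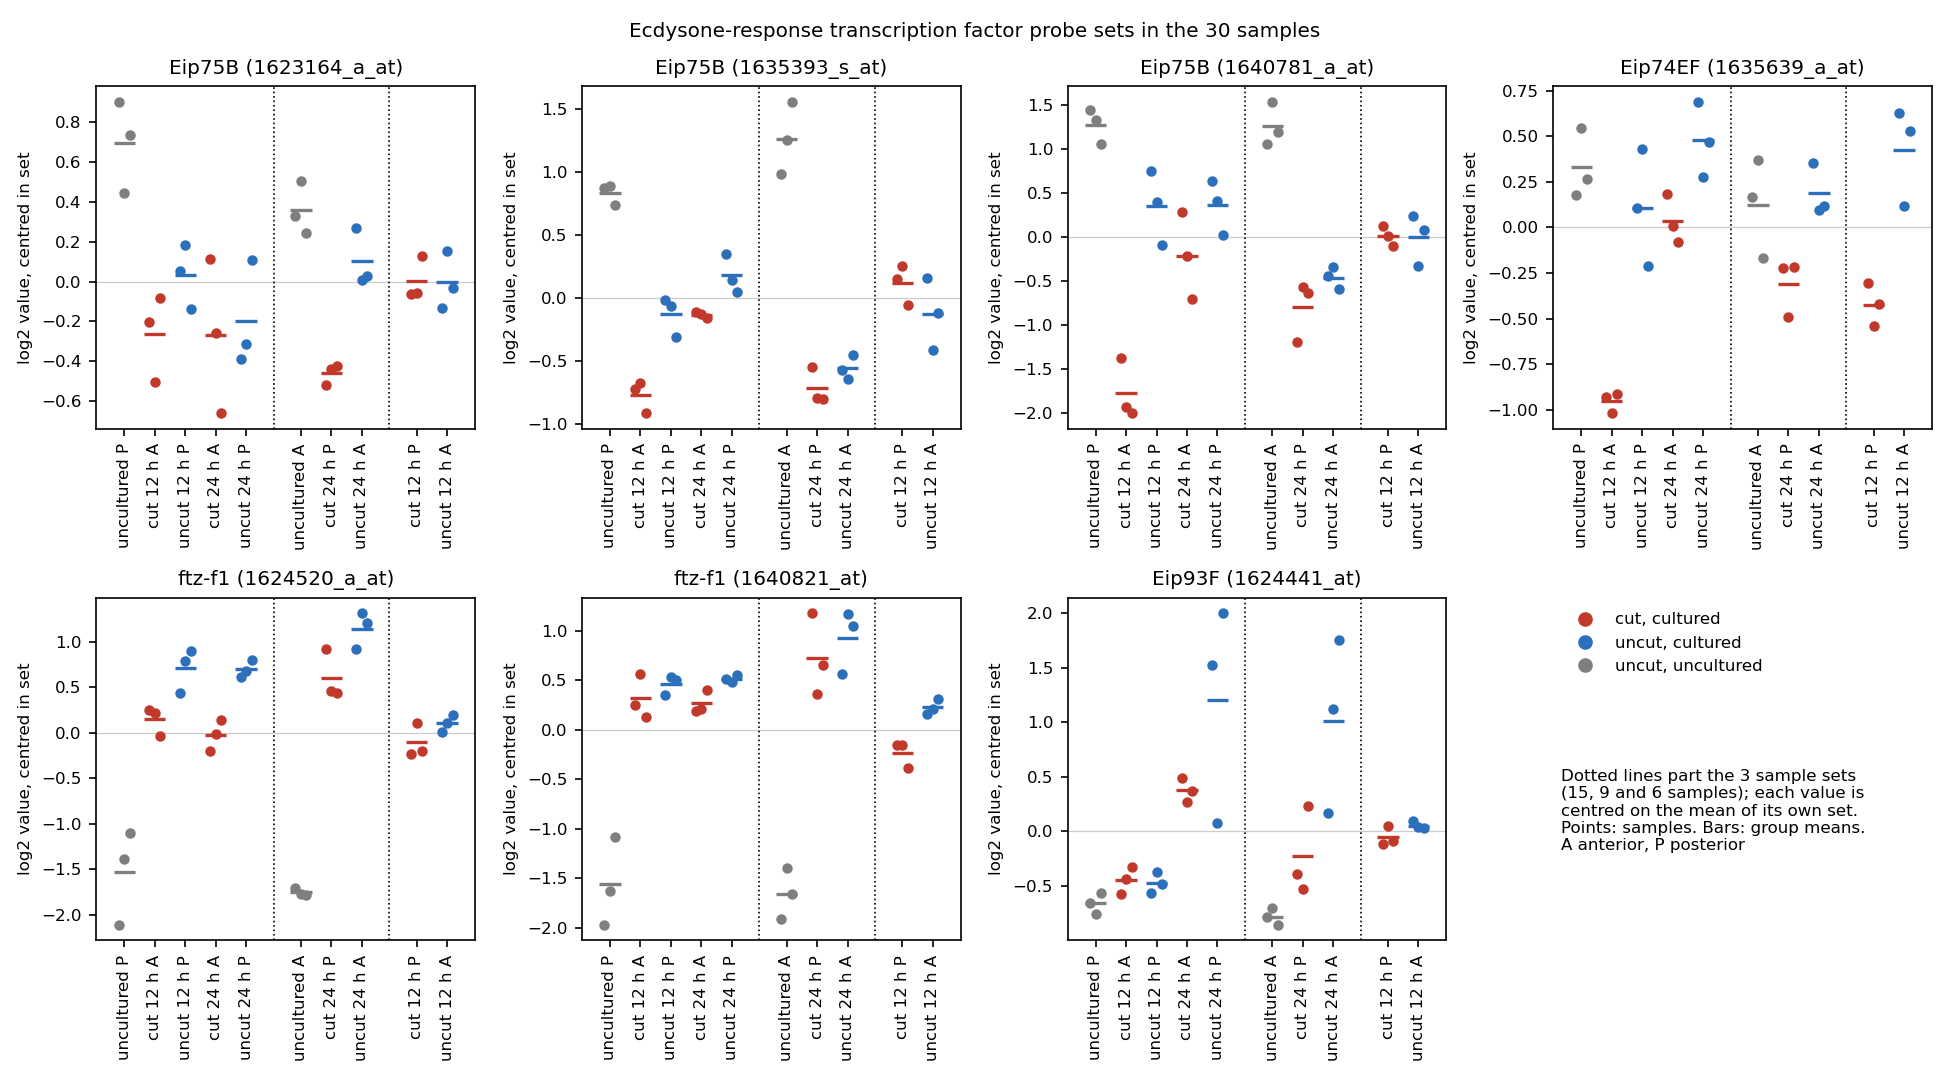
Log2 values (y axis, centred within each sample set) of the 7 probe sets in all 30 samples, with points for samples and bars for means of 3. Dotted lines part the 3 sample sets, across which heights cannot be compared; in the first 2 sets the uncultured samples were the lowest for both ftz-f1 probe sets, and averaged highest for all 3 Eip75B probe sets.

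Uncut discs cultured in an adult abdomen differed from uncultured ones in different directions across the members. Of the 7 probe sets, 6 come from the authors' deposited table for culture, whose comparisons include these, so the shares of all probe sets are given beside the counts and nothing is read from them. In the 12 h posterior culture 2 of the 7 probe sets were higher and 3 lower, against 20.2% of all probe sets called in either direction. In the 24 h anterior culture 3 were higher and 2 lower, against 32.1% of all probe sets. In the 24 h posterior culture 3 were higher and 3 lower, against 24.1% of all probe sets. Both ftz-f1 probe sets rose in all 3 comparisons, Eip93F rose at 24 h, at least 2 of the 3 Eip75B probe sets fell in each, and Eip74EF passed in none.

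ftz-f1, the competence factor, showed the largest rise among the members. For probe set 1624520_a_at, uncut posterior samples had log2 values of 0.44, 0.79 and 0.90 after 12 h and 0.62, 0.68 and 0.80 after 24 h, against -2.10, -1.39 and -1.10 in uncultured posterior samples. The groups did not overlap, and the lowest cultured sample lay well above the highest uncultured one. The difference was 2.24 (1.87 to 2.61) at 12 h, a 4.73-fold rise with limma's adjusted p = 1.75e-09, and 2.23 (1.86 to 2.60) at 24 h with adjusted p = 1.13e-09. In anterior tissue the uncut 24 h samples had 0.91, 1.31 and 1.20, against -1.70, -1.77 and -1.78 in the uncultured ones. That is a 7.42-fold rise (log2 2.89, 2.52 to 3.26, adjusted p = 1.41e-11), ranked 10 of all probe sets by p. The second probe set, 1640821_at, rose by 2.03 and 2.08 in posterior tissue at 12 h and 24 h and by 2.58 in anterior tissue at 24 h. Between 12 h and 24 h of posterior culture the difference was -0.01 (-0.38 to 0.36) for the first probe set and 0.05 (-0.34 to 0.45) for the second, and neither passed the test.

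Eip75B, the first-tier nuclear receptor, fell in culture. For 1640781_a_at, uncut posterior samples had 0.75, 0.40 and -0.09 after 12 h and 0.64, 0.41 and 0.02 after 24 h, against 1.44, 1.33 and 1.06 in uncultured posterior samples. Every cultured sample was below every uncultured one. The falls were -0.92 (-1.40 to -0.44, adjusted p = 0.00449) and -0.92 (-1.40 to -0.44, adjusted p = 0.00411, limma), and the first did not pass without replicate 3 of the 12 h posterior uncut group (adjusted p = 0.0526) or after renewed quantile normalization (adjusted p = 0.0624). In anterior tissue the uncut 24 h samples had -0.45, -0.34 and -0.60, against 1.05, 1.54 and 1.20 in the uncultured ones, a 3.30-fold fall (log2 -1.72, -2.20 to -1.24, adjusted p = 2.35e-06).

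The other Eip75B probe sets differed in size. For 1635393_s_at the falls were -0.97 and -0.65 in posterior tissue at 12 h and 24 h, and -1.82 (-2.10 to -1.54) in anterior tissue at 24 h. Uncut 24 h samples of this probe set had 0.35, 0.15 and 0.05 in posterior tissue, against 0.88, 0.89 and 0.74 in uncultured posterior samples. In anterior tissue they had -0.57, -0.64 and -0.45, against 0.98, 1.25 and 1.56 in the uncultured samples. The culture effect at 24 h was less negative in posterior than in anterior tissue by 1.17 (0.78 to 1.56, limma's adjusted p = 0.00343), where 1.28% of all probe sets passed that test, and the same difference did not pass for 1640781_a_at (0.81, 0.13 to 1.48, adjusted p = 0.22). Probe set 1623164_a_at fell by 0.66 and by 0.89 in posterior tissue at 12 h and 24 h (adjusted p = 0.00284 and 0.00011), whereas its anterior value at 24 h was -0.26 (-0.58 to 0.07, adjusted p = 0.23). The suffixes of the names mark probe sets that can match several transcripts, and the transcripts they read, of this gene or of others, are not given in the sources used here.

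Eip93F, the late factor, rose at 24 h and with a wide spread. Uncut 24 h posterior samples had 1.53, 0.08 and 2.004, against -0.66, -0.76 and -0.57 in uncultured posterior samples. Uncut 24 h anterior samples had 0.17, 1.12 and 1.76, against -0.79, -0.71 and -0.86 in uncultured anterior samples. In each region 1 cultured sample stayed far below the other two and still above all uncultured samples. The differences were 1.86 (1.21 to 2.52, adjusted p = 6.63e-05) and 1.80 (1.14 to 2.45, adjusted p = 8.57e-05, limma), a 3.64-fold and a 3.47-fold rise. These intervals use a spread shared by all 10 groups, and the standard deviations of the 24 h groups, 1.00 and 0.80, were the largest among them. After 12 h the posterior samples had -0.57, -0.37 and -0.48, a difference of 0.19 (-0.47 to 0.84) from the uncultured ones. The step from 12 h to 24 h in posterior tissue was 1.68 (1.02 to 2.33, adjusted p = 0.0142, limma), ranked 24 of all probe sets by p, in a comparison where 0.623% of all probe sets passed. It was 1.28 to 2.24 with 1 array left out, and it did not pass without replicate 3 of the 12 h group or replicate 1 or 3 of the 24 h group (adjusted p up to 0.148), nor in a fit of the 2 groups alone (adjusted p = 0.156).

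Eip74EF, the ETS-domain factor, did not pass in any of these cultures. Uncut posterior samples had 0.11, 0.43 and -0.21 after 12 h and 0.69, 0.28 and 0.47 after 24 h, against 0.18, 0.55 and 0.27 in uncultured posterior samples. Uncut 24 h anterior samples had 0.35, 0.09 and 0.12, against 0.17, 0.37 and -0.17 in the uncultured ones. The groups overlapped in all 3 comparisons, and the differences were -0.22 (-0.54 to 0.10), 0.15 (-0.17 to 0.47) and 0.07 (-0.26 to 0.39) in that order of time, posterior before anterior. The intervals reach from -0.54 to 0.47, so that smaller changes in either direction were not excluded.

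**Figure D2:**
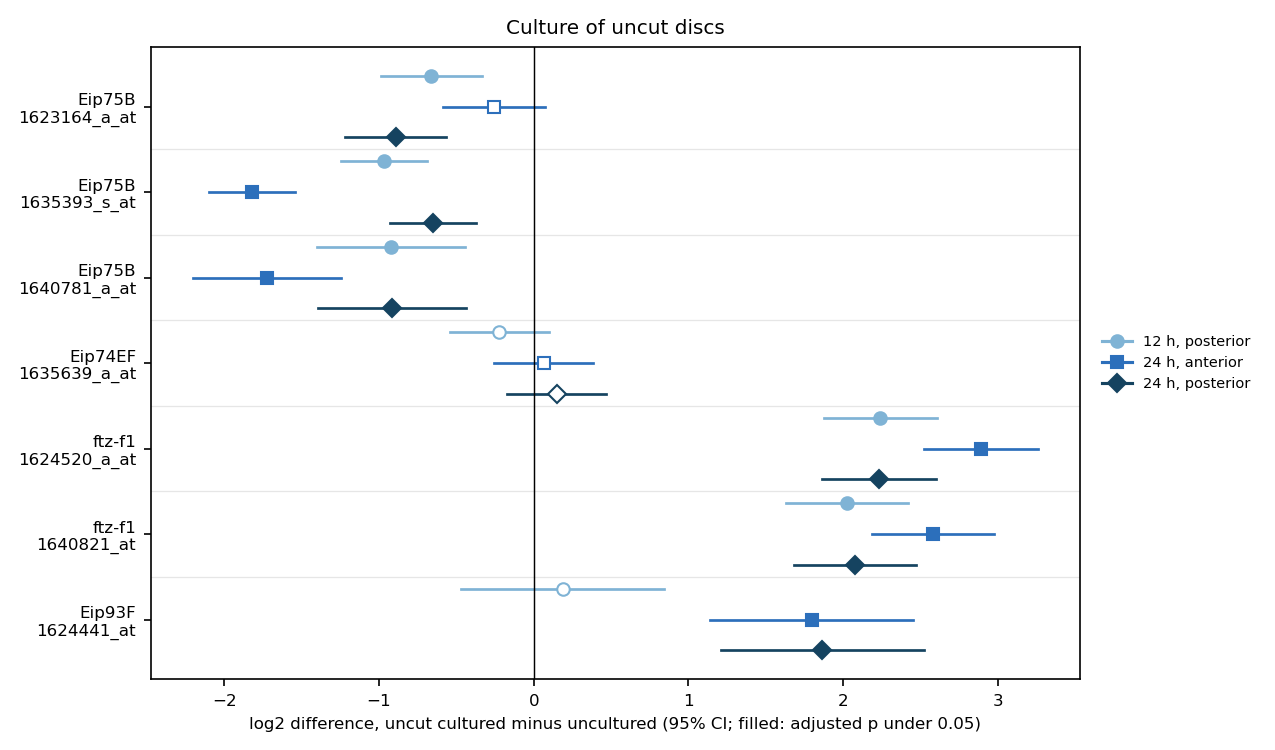
Log2 difference (x axis) of uncut cultured minus uncultured samples for each probe set (y axis), with 95% confidence intervals, for the 3 culture comparisons in which the centring cancels; filled symbols passed the test. ftz-f1 lies between 2.03 and 2.89, Eip75B between -1.82 and -0.26, and Eip93F near 0 at 12 h and near 1.8 at 24 h.

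After cutting, Eip74EF and ftz-f1 (1624520_a_at) were lower at both times by the mean of both regions, Eip75B (1640781_a_at) at 12 h and Eip93F at 24 h, and the other values did not pass. As this mean, 3 of the 7 probe sets were lower and 0 higher in cut than in uncut samples at 12 h, against 16.5% of all probe sets called in either direction. At 24 h 3 were again lower and 0 higher, against 17.8% of all probe sets. The median over the 7 was -0.30 at 12 h and -0.45 at 24 h, and the median over all probe sets 0.01 and 0.01. In the comparisons within a sample set, 4 of the 7 were lower in the first set (11.5% of all probe sets called) and 1 in the third (9.55%) at 12 h, and 1 in the first (7.78%) and 4 in the second (16.2%) at 24 h, with 0 higher in any. Of the 7, 4 come from the authors' deposited table for cutting, which was filtered on the same samples, so nothing is read from these counts against the shares of all probe sets.

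Eip74EF gave the same direction in each sample set. In the first set, cut 12 h anterior samples had -0.93, -1.02 and -0.91, against 0.11, 0.43 and -0.21 in uncut 12 h posterior samples. In the third set, cut 12 h posterior samples had -0.31, -0.54 and -0.42, against 0.63, 0.12 and 0.53 in uncut 12 h anterior samples. The groups did not overlap in either set, and the differences were -1.06 (adjusted p = 3.59e-05) and -0.85 (adjusted p = 0.000957, limma). Their mean, in which region cancels as well as the centring, was -0.96 (-1.18 to -0.73), a 1.94-fold fall with adjusted p = 1.34e-06. At 24 h the samples of the first set were 0.18, 0.01 and -0.08 in cut anterior tissue, against 0.69, 0.28 and 0.47 in uncut posterior tissue. Those of the second set were -0.22, -0.49 and -0.22 in cut posterior tissue, against 0.35, 0.09 and 0.12 in uncut anterior tissue. The groups again did not overlap, and the mean fall was -0.47 (-0.70 to -0.24, adjusted p = 0.00305). The change in the cut effect, 24 h minus 12 h, was 0.49 (0.16 to 0.81), which did not pass (adjusted p = 0.203, limma).

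Eip75B differed between the sets at 12 h. For 1640781_a_at, cut 12 h anterior samples had -1.37, -1.93 and -2.002, against 0.75, 0.40 and -0.09 in uncut 12 h posterior samples, a difference of -2.12 (-2.60 to -1.64, adjusted p = 6.48e-07). In the third set, cut 12 h posterior samples had 0.12, 0.01 and -0.11, against 0.23, -0.33 and 0.08 in uncut 12 h anterior samples, a difference of 0.01 (-0.47 to 0.49). The first pair of groups lay far apart and the second overlapped. The mean fall was -1.06 (-1.39 to -0.72, adjusted p = 6.34e-05, limma), and the mean difference between regions at 12 h, posterior minus anterior, was 1.07 (0.73 to 1.41, adjusted p = 0.000193) where 3.04% of all probe sets passed. Both means are formed from the same 2 differences, -2.12 and 0.01, and are not independent of each other. Probe set 1635393_s_at showed the same contrast between sets, with -0.64 (adjusted p = 0.00214) in the first and 0.24 (adjusted p = 0.296) in the third, and a mean regional difference of 0.44 (adjusted p = 0.00796). Its mean cut effect did not pass in the main fit or in any of 6 alternatives (-0.20 to -0.07 in these). For 1623164_a_at neither the mean cut effect (-0.20 to -0.15 in the alternatives) nor the mean regional difference (0.15 to 0.20) passed in any fit. Neither the cut effect in 1 region nor the regional difference in uncut tissue can be taken from these numbers, since both rest on values of different sets.

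At 24 h the cut effects of Eip75B, as the mean of both regions, were -0.45 (-0.79 to -0.12, adjusted p = 0.0573) for 1640781_a_at, -0.24 (-0.43 to -0.04, adjusted p = 0.0944) for 1635393_s_at and -0.32 (-0.55 to -0.09, adjusted p = 0.0514) for 1623164_a_at. None passed in limma's main settings, and each passed under 2 or 3 of the alternative settings with all arrays kept. Posterior minus anterior at 24 h, the mean of cut and uncut samples, lay between -0.25 and 0.12 for the 3 probe sets, and 0 of the 7 members passed there (3.02% of all probe sets did), with an unadjusted limma p under 0.05 for 1.

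ftz-f1 was lower after cutting, though far above its uncultured level. For 1624520_a_at, cut 24 h anterior samples had -0.20, -0.02 and 0.15, against 0.62, 0.68 and 0.80 in uncut 24 h posterior samples. Cut 24 h posterior samples had 0.92, 0.45 and 0.44, against 0.91, 1.31 and 1.20 in uncut 24 h anterior samples. The first pair did not overlap and the second did, by 1 sample on each side. The mean fall was -0.63 (-0.89 to -0.37, adjusted p = 0.000699), a 1.55-fold difference, and at 12 h it was -0.39 (-0.65 to -0.13, adjusted p = 0.0354, limma), a call lost in 7 of the 12 fits that left out 1 array of these groups (adjusted p up to 0.102). The arrays were replicate 3 of the cut anterior group, 1 and 3 of the cut posterior, 2 and 3 of the uncut anterior and 2 and 3 of the uncut posterior group. For 1640821_at the values were -0.30 (-0.58 to -0.02, adjusted p = 0.135) at 12 h and -0.22 (-0.50 to 0.06, adjusted p = 0.312) at 24 h, so the call at either time rests on 1 of the 2 probe sets.

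Eip93F was lower in cut samples at 24 h. Cut 24 h anterior samples had 0.49, 0.27 and 0.37, against 1.53, 0.08 and 2.004 in uncut 24 h posterior samples. Cut 24 h posterior samples had -0.39, -0.53 and 0.23, against 0.17, 1.12 and 1.76 in uncut 24 h anterior samples. The groups overlapped in both sets, through the lowest uncut sample of each. The mean fall was -1.04 (-1.499 to -0.57, adjusted p = 0.00153, limma), and it was -1.32 to -0.84 with 1 array left out. At 12 h the mean difference was -0.04 (-0.50 to 0.43). The change between times was -0.997 (-1.65 to -0.34), which did not pass (adjusted p = 0.201) in a comparison where 0.368% of all probe sets did.

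**Figure D3:**
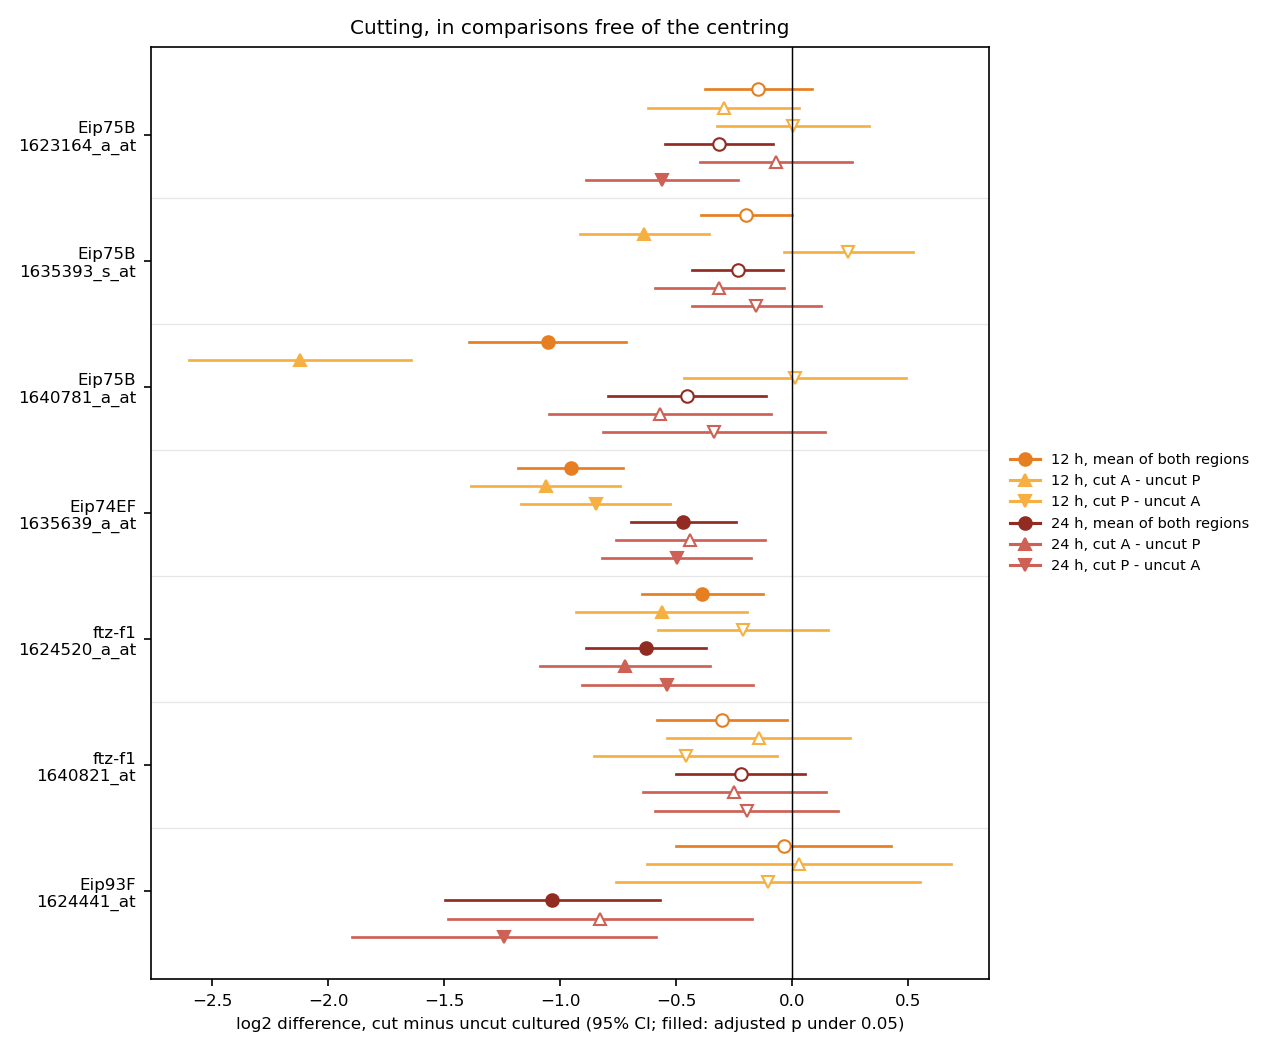
Log2 difference (x axis) of cut minus uncut cultured samples for each probe set (y axis) at 12 h and 24 h, with 95% confidence intervals; circles are the mean of both regions, triangles the 2 comparisons within a sample set that make up each mean (A anterior, P posterior), and filled symbols passed the test. The paired triangles of Eip74EF lie together at -1.06 and -0.85, those of Eip75B 1640781_a_at at 12 h lie at -2.12 and 0.01.

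Genes of other cell types moved with the cut and in culture. All 4 of the 8 hemocyte genes named in the tables (Hml, NimC1, Sr-CI and eater) were higher in cut samples at 24 h by 1.21 to 1.44, and 3 of them at 12 h. In the first set their mean was 1.34 to 1.89 in cut 24 h anterior samples, against -0.74 to 0.26 in uncut 24 h posterior samples. In the second set it was 0.64 to 1.10 in cut 24 h posterior samples, against -0.24 to 0.38 in uncut 24 h anterior samples. Of 5 myoblast probe sets (Him, Mef2, htl and twi, 4 of 6 genes), 5 were lower in cut samples at 12 h and 2 at 24 h, and futsch and repo, 2 of 4 genes of neurons and glia, were lower at both times. These counts after cutting use the mean of both regions, where 16.5% of all probe sets were called at 12 h and 17.8% at 24 h. In culture Yp1, the yolk protein gene named among 7 fat body genes, was 3.16 higher in anterior tissue at 24 h (limma's adjusted p = 5.15e-07) and its values of 0.29 and 0.41 in posterior tissue did not pass. In the 12 h posterior, 24 h anterior and 24 h posterior cultures, 0, 4 and 1 of the 4 hemocyte probe sets were higher. For myoblasts these counts were 2, 2 and 4 of 5, and for neurons and glia 0, 2 and 1 of 2, with 0 lower in any. All probe sets called were 20.2%, 32.1% and 24.1%. The medians of the 3 lists were 1.13, 0.28 and 0.79 at 24 h in anterior tissue and 0.72, 0.56 and 1.08 in posterior tissue. No tracheal gene was named. Whether any of these has a part in the members' values was not tested.

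Set against uncultured tissue, the cut samples of 24 h showed both changes at once. As the mean of both regions 3 of the 7 probe sets were higher and 4 lower, against 27.5% of all probe sets called in either direction. ftz-f1 was higher by 1.93 (1.67 to 2.19) and 2.11 (1.83 to 2.39) on its 2 probe sets, and Eip93F by 0.80 (0.33 to 1.26, adjusted p = 0.00896, limma). Eip75B was lower by all 3 probe sets, at -0.89, -1.47 and -1.77, and Eip74EF was lower at -0.36 (-0.59 to -0.14, adjusted p = 0.0146). The Eip74EF value did not pass without replicate 2 of either uncultured group (adjusted p up to 0.051), and after renewed quantile normalization neither it (adjusted p = 0.0676) nor the Eip93F value (adjusted p = 0.0739) passed.

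Between 12 h and 24 h, cut anterior samples could be compared directly, as both groups lay in the first set. 3 of the 7 probe sets were higher at 24 h, against 2.8% of all probe sets in either direction. Eip75B 1640781_a_at had 0.28, -0.21 and -0.71 at 24 h, against -1.37, -1.93 and -2.002 at 12 h, a rise of 1.56 (1.08 to 2.04, adjusted p = 0.000244). Eip74EF rose by 0.99 (0.67 to 1.31, adjusted p = 0.000415, limma) and Eip75B 1635393_s_at by 0.64 (0.36 to 0.91, adjusted p = 0.00725), the last not without replicate 3 of the 12 h group (adjusted p = 0.0642) or after renewed quantile normalization (adjusted p = 0.0856). No sample of these 3 probe sets overlapped between the times. ftz-f1 differed by -0.17 (-0.54 to 0.20) and -0.05 (-0.45 to 0.34), and Eip93F by 0.82 (0.17 to 1.48, adjusted p = 0.201). The Eip93F samples did not overlap either, with 0.49, 0.27 and 0.37 at 24 h against -0.57, -0.44 and -0.32 at 12 h. This difference did not pass in 5 of 6 alternative settings, and its lowest adjusted p over them was 0.00482 (limma). For cut posterior tissue the 2 times lie in different sets.

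Within the first set, the order of the 5 group means set the genes apart. Eip74EF had cut 12 h anterior samples at the bottom (-0.95), and the 4 groups above it, led by uncut 24 h posterior samples (0.48), each overlapped with the next. Eip75B 1640781_a_at ran from uncultured posterior samples (1.27) through uncut 24 h and 12 h posterior and cut 24 h anterior samples, which overlapped from one to the next, down to cut 12 h anterior samples (-1.77), clear of all others. ftz-f1 1624520_a_at had both uncut cultured groups on top (0.71 and 0.70), both cut groups below them (0.15 and -0.02) and the uncultured group last (-1.53), with overlaps only between groups of the same treatment. Eip93F had both 24 h groups, uncut (1.20) and cut (0.38), above both 12 h groups and the uncultured group.

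The comparisons within a region, as planned and as the authors deposited them, gave the following values, each with a set offset of unknown size. At 12 h anterior 3 of the 7 were lower in cut samples (8.84% of all probe sets passed), with Eip74EF at -1.38, Eip75B 1640781_a_at at -1.76 and 1635393_s_at at -0.65. At 12 h posterior 3 were lower (5.05% of all), with Eip74EF at -0.53 and ftz-f1 at -0.82 and -0.69. With 1 array left out, the calls at -0.53 and -0.69 were each lost in 5 of 6 fits, and the call at -0.82 in 1 of 6. At 24 h anterior ftz-f1 was lower at -1.17 and -0.66 and Eip75B 1635393_s_at higher at 0.43 (8.62% of all). The Eip75B call was lost in 6 of 6 fits with 1 array left out (limma's adjusted p 0.0584 to 0.152), and the ftz-f1 call at -0.66 in 4 of 6. At 24 h posterior 4 were lower (9.85% of all), with Eip74EF at -0.79, Eip75B at -0.90 and -1.16 and Eip93F at -1.43. The Eip93F call was lost in 1 of 6 such fits. Read alone, the values within a region give Eip74EF a cut effect at 24 h in posterior tissue and, at -0.15, none that passed in anterior tissue. Within sample sets, where cut tissue is set against uncut tissue of the opposite region, the values were -0.44 and -0.50. The first did not pass, and the second was lost in 2 of 6 alternative settings and in 2 of 6 fits with 1 array left out. For the 12 h anterior culture, which also spans 2 sets, ftz-f1 had 1.85 and 1.89 and Eip75B -1.27 and -1.39 on the probe sets that passed (15.8% of all).

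Each of the other planned comparisons across sets is given by its counts. Against uncultured tissue of the same labelled region, cut samples had 2 probe sets higher and 4 lower at 12 h in either region (14.8% of all probe sets passed for anterior, 8.16% for posterior tissue). At 24 h they had 3 higher and 3 lower in anterior tissue (13.1% of all) and 2 higher and 4 lower in posterior tissue (18.4% of all). In uncut anterior tissue 1 probe set, ftz-f1 1624520_a_at, was higher at 24 h than at 12 h, by 1.04 (2.17% of all). Between posterior and anterior uncultured tissue 0 of the 7 passed (0.714% of all), and limma's unadjusted p was under 0.05 for 2 Eip75B probe sets. The cut effect, posterior minus anterior, passed for 1 of the 7 at 12 h (0.208% of all) and 1 at 24 h (0.123% of all), and the cut effect, 24 h minus 12 h, for 4 in anterior tissue (2.15% of all) and 1 in posterior tissue (0.474% of all). The culture effect at 12 h, posterior minus anterior, passed for 0 of the 7 (0.192% of all), with an unadjusted limma p under 0.05 for 2.

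The authors' deposited tables, whose largest adjusted p was 0.000999 for cutting and 0.000995 for culture, test 4 comparisons together and so include the offsets. The authors' deposited table for cutting lists Eip74EF at rank 142 of 1480 probe sets with an adjusted p of 5.28e-07. In the authors' deposited table for culture, ftz-f1 1624520_a_at has an adjusted p of 4.55e-13 and Eip93F one of 4.9e-06. The authors' deposited k-means clusters put Eip75B in cluster III (95 probe sets), and Eip74EF and ftz-f1 in cluster IV (637 probe sets).

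The other genes of the pathway were taken from lists chosen for this tissue, of which only those named in the authors' tables could be followed, so that every probe set counted below had passed the authors' threshold. EcR, which encodes the hormone receptor, and Oatp74D, which encodes the importer that brings ecdysone into cells, were the 2 of 7 listed receptor and cofactor genes. Both were higher in posterior culture (EcR by 0.76 and 0.90, Oatp74D by 0.79 and 0.57 at 12 h and 24 h), EcR also in anterior culture (1.22). Both were lower in cut than in uncut samples at 12 h (-0.42 and -0.78), and neither passed at 24 h (-0.35 each).

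Of the 15 other transcription factor genes on the list, 10 were named, by 15 probe sets. In the 12 h posterior culture 5 were higher and 9 lower, in the 24 h anterior culture 4 and 7, and in the 24 h posterior culture 6 and 7, beside 20.2%, 32.1% and 24.1% of all probe sets called in either direction. As the mean of both regions, 1 was higher and 9 lower in cut samples at 12 h, and 2 higher and 6 lower at 24 h (16.5% and 17.8% of all probe sets), with medians of -0.31 and -0.21, against 0.01 and 0.01 over all probe sets. br, the zinc finger gene of the first tier, was lower on all 5 of its probe sets after cutting at 12 h, by -0.63 to -1.05, and on 4 of 5 at 24 h. It was also lower on 5 probe sets in the 12 h posterior culture (-1.45 to -0.35) and on 4 and 3 in the posterior and anterior 24 h cultures. Eip78C, Hr4 and Blimp-1, further hormone-responsive factors, fell in all 3 cultures by 0.61 to 1.22, and their cut effects lay between -0.06 and 0.13. chinmo, a factor of the larval state whose expression br and Eip93F are known to oppose, showed the largest rises of the list, at 2.37 to 3.48 in culture on its 2 probe sets, and after cutting it had 0.58 and 0.54 at 12 h, the second short of the threshold, and 0.71 and 1.06 at 24 h. ken rose in all 3 cultures (1.36 to 1.46). Kr-h1, a juvenile hormone response gene, and Sox14 were lower after cutting at both times (-0.56 and -0.59, and -0.65 and -0.32).

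Of 19 effector genes 10 were named, by 13 probe sets. Of these, 3 were higher and 9 lower in the 12 h posterior culture, 2 and 11 in the anterior culture of 24 h, 1 and 10 in the posterior one (20.2%, 32.1% and 24.1% of all probe sets). ImpE2 and ImpE3, ecdysone-induced genes of disc eversion, fell by 5.01, 4.43 and 3.95 and by 3.01, 3.39 and 2.47 in the 12 h posterior, 24 h anterior and 24 h posterior cultures. They were lower still in cut samples, at -1.54 and -1.70 for ImpE2 and -0.94 and -0.92 for ImpE3 at 12 h and 24 h. ImpE1 fell in culture on all 3 probe sets (-1.75 to -4.85), yet was higher in cut than in uncut samples on all 3 at both times (0.65 to 1.45). Cyp18a1, which encodes an enzyme that inactivates ecdysone, fell in all 3 cultures on both probe sets (-0.57 to -2.56), and E23, which encodes a transporter known to export ecdysone, rose by 1.21 to 1.73. As the mean of both regions, 4 effector probe sets were higher and 3 lower after cutting at 12 h, and 7 and 3 at 24 h (16.5% and 17.8% of all probe sets). The largest of these changes at 24 h was a rise of Ddc, at 1.72 (limma's adjusted p = 0.00323), next to the fall of ImpE2 at -1.70.

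**Figure D4:**
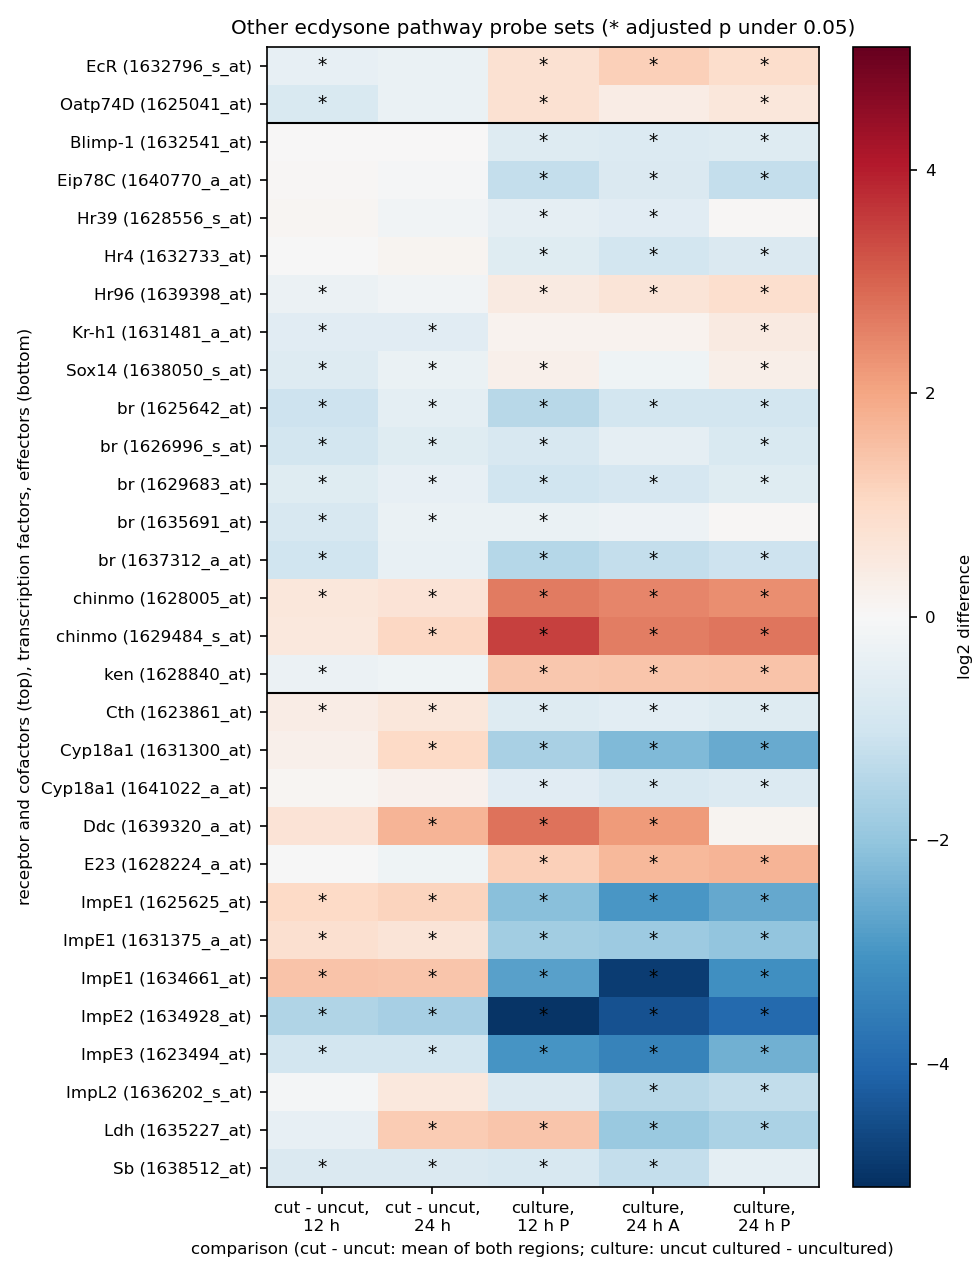
Log2 differences (colour) of the other ecdysone pathway probe sets (rows) in the 5 comparisons (columns) in which the centring cancels, with asterisks where the test was passed; cut minus uncut is the mean of both regions, and A and P are anterior and posterior. br is blue in nearly every column, chinmo red in every column, and ImpE1 red after cutting but blue in culture.

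Likeness in pattern was measured by Pearson's r over the 10 group means, among 1457 named probe sets with a range of at least 1, and r over the 5 groups of the first set is given beside it because the 10 means carry the set offsets. Points in these correlations share arrays and centring, and r is a description. Closest to Eip75B 1640781_a_at were nebu (0.97, and 0.96 in the first set), br (0.96 and 0.98) and mub (0.94 and 0.96). Closest to 1635393_s_at were Dyrk2, lig and alt (0.95 each, with 0.97, 0.94 and 0.97), and to 1623164_a_at alphaTub84D (0.95 and 0.94), dy (0.92 and 0.98) and Eip78C (0.90 and 0.96). Eip74EF was matched best by ttk (0.98 in both), tna (0.96 in both) and Ect3 (0.96 and 0.97). For ftz-f1 the closest were CG8399 (0.99 and 1.00), CG14696 (0.99 in both) and CG5455 (0.99 in both) on the first probe set, and ps, CG14696 and Thor (at least 0.99 in both) on the second. Eip93F was followed most closely by gogo (0.99 in both), Ir25a (0.98 and 0.99) and CG31676 (0.97 and 0.96). Among the members, both ftz-f1 probe sets had r = 0.98 with each other, and the Eip75B probe sets 0.77, 0.77 and 0.92 over the 10 means.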

How the data were processed

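Total RNA of 30 samples was amplified in 2 cycles, biotin-labelled and hybridized to Affymetrix arrays, per the labels' protocols. The submitters' processing notes name RMA and limma without versions. The values deposited by the authors are log2 expression values, with the base inferred from RMA, and their means over groups gave the log fold changes of the authors' tables to within 1.6e-08. Adjusted p-values per probe set deposited by the authors cover 4 comparisons jointly. Row means of 0 within 3 sample sets were found in the values, and the step behind them is not given in the sources used here.

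A model of 10 group means was fitted with limma 3.58.1 in R 4.3.3 to 18769 probe sets, after removal of 183 control rows, with 20 residual degrees of freedom, empirical Bayes variances and Benjamini-Hochberg adjustment. The fit was tested on simulated data, in which offsets between sets left the comparisons named free of them unmoved. That follows from how these comparisons are formed, so it is a check of the code and says nothing about the real data. P-values measure the spread between samples within groups, 3 a group, through an estimate for each probe set that all 10 groups share. For Eip93F the standard deviation ran from 0.03 in uncut 12 h anterior samples to 1.00 in uncut 24 h posterior samples. Its intervals therefore understate the spread of the uncut 24 h groups and overstate that of the tight groups. Depth does not apply to arrays: their number limits the precision. With 3 samples against 3, an exact permutation test cannot go below 0.1, and none was run.

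Every probe set named for the 4 genes was used separately. The rules by mean level (a main probe set per gene, a filter on dim probe sets, an intensity trend, a level filter for likeness) could not be applied, as centred values hold no level. Names came from the tables for 3325 probe sets (2573 current symbols, 704 updated by synonym, 48 without a match) and RefSeq Release 6. Same-numbered replicates were not treated as pairs in the main fit. The median correlation of their deviations was 0.02 over 135 pairs, with 38 over 0.1. For pairs of different number it was -0.004 over 270 pairs, with 54 over 0.1. Members, lists and tests were chosen with earlier results of these data known. Alternatives were a replicate block, renewed quantile normalization, centring each array on its median, a robust prior, array quality weights, fits of the compared groups alone, and leaving out each array of the groups compared.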

Additional observations from a re-analysis of the deposited data

Results flagged for a closer look

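The difference of 2 effects passed limma's test for 8 values, over 7 such comparisons. In 1 of them the centring cancels: the 24 h culture effect on Eip75B 1635393_s_at, posterior minus anterior, was 1.17 (adjusted p = 0.00343), with -0.65 in posterior and -1.82 in anterior tissue.

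The other values rest on different sample sets, so that a difference in effect and a difference in centring cannot be told apart. For Eip75B 1635393_s_at the cut effect, posterior minus anterior, was 0.89 at 12 h (limma's adjusted p = 0.0465, lost in 9 of 12 fits with 1 array left out) and -1.32 at 24 h (adjusted p = 0.00257), the sign turning between the times. The cut effect, 24 h minus 12 h, of the same probe set was 1.07 in anterior tissue and -1.14 in posterior tissue, and as the mean of both regions -0.04 (adjusted p = 0.963). For Eip75B 1640781_a_at it was 2.01 in anterior tissue, and 0.60 (adjusted p = 0.317) as the mean of both regions. For Eip74EF it was 1.23 in anterior tissue against 0.49 (adjusted p = 0.203) as the mean, and for ftz-f1 1624520_a_at -1.21 against -0.24 (adjusted p = 0.679).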

How the results depend on the processing

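The 3 culture comparisons and the mean cut effects kept the direction of every called member in all alternatives and with any 1 of their arrays left out, and the calls lost there are named in the report. Over all comparisons in which the centring cancels, 12 of 46 calls on members were lost under at least 1 alternative or left-out array, and 11 of 49 over those in which it does not. The counts of called members given in this paragraph are out of 7. Mean cut effect at 24 h (3 called): 5 after renewed quantile normalization or median centring, and 3 to 5 with 1 array left out. Uncut posterior 24 h against 12 h (1 called): 2 with array weights, 0 with the compared groups alone (limma, 0 of all probe sets, 2 of the 7 by array weights), 0 to 1 with 1 array left out. Uncut anterior 24 h against 12 h (1): 2 with the replicate block or median centring, 1 to 3. Cut effect, posterior minus anterior, 12 h (1): 2 with the replicate block or array weights, 3 with the compared groups alone, 0 with quantile normalization or the robust prior (limma), 0 to 2; at 24 h (1): 2 with quantile normalization, 1 to 2. Cut effect, 24 h minus 12 h, posterior (1): 2 with the replicate block, quantile normalization or array weights, 1 to 2; as the mean of both regions (0), 0 to 1. Culture effect, posterior minus anterior, 12 h (0): 1 with the compared groups alone; at 24 h (1), 1 to 2. Cut posterior against uncut anterior, 12 h (1): 2 with quantile normalization or the compared groups alone; at 24 h (4): 1 with array weights, 2 with the compared groups alone, 2 to 3. Cut anterior against uncut posterior, 24 h (1): 5 with array weights, 0 to 2. Within regions, the 12 h posterior cut comparison (3) gave 1 to 2 and the 24 h anterior one (3) gave 1 to 3, and posterior against anterior uncultured tissue (0) gave 0 to 1. The cause was not tested.

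Direction turned only for values short of the threshold. With quantile normalization Eip93F was -0.22 in the 12 h posterior culture and 0.076 as mean cut effect at 12 h, Eip75B 1640781_a_at -0.076 and ftz-f1 1640821_at -0.053 for uncut posterior 24 h against 12 h, and posterior minus anterior was -0.18 for Eip74EF at 12 h and -0.025, -0.013 and -0.12 for Eip75B 1635393_s_at, ftz-f1 1624520_a_at and ftz-f1 1640821_at at 24 h. Array weights gave 0.10 and median centring 0.014 for Eip75B 1623164_a_at between cut anterior times, and array weights -0.0018 for Eip93F and -0.009 for Eip75B 1640781_a_at in the 12 h comparisons within a set. With 1 array left out, 18 values crossed 0 where the centring cancels and a further 11, not listed, where it does not. The 18 ranges were, for Eip74EF, -0.079 to 0.19 (24 h anterior culture), -0.041 to 0.23 (24 h culture effect, posterior minus anterior) and -0.082 to 0.021 (24 h posterior minus anterior). For Eip93F they were -0.36 to 0.63 (24 h culture effect between regions), -0.033 to 0.092 (cut anterior against uncut posterior, 12 h) and -0.42 to 0.073 (24 h posterior minus anterior). For ftz-f1 1624520_a_at the range was -0.15 to 0.085 (uncut posterior 24 h against 12 h), and for 1640821_at -0.0029 to 0.089 (the same), -0.033 to 0.17 (cut effect between times), -0.14 to 0.073 (cut anterior 24 h against 12 h) and -0.086 to 0.12 (24 h posterior minus anterior). For Eip75B 1640781_a_at they were -0.22 to 0.20 (uncut posterior 24 h against 12 h), -0.15 to 0.13 (cut posterior against uncut anterior, 12 h) and -0.0078 to 0.24 (24 h posterior minus anterior), for 1635393_s_at -0.11 to 0.035 (cut effect between times), and for 1623164_a_at -0.20 to 0.19 (cut anterior 24 h against 12 h), -0.061 to 0.083 (cut posterior against uncut anterior, 12 h) and -0.26 to 0.13 (cut anterior against uncut posterior, 24 h).

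Renewed quantile normalization is not additive, so the set offsets need not cancel under it. Counts over all probe sets moved by over 1.5 times in 23 comparisons with array weights, 14 with the compared groups alone, 13 with quantile normalization and 4 with the robust prior. Among them, the 12 h posterior culture had 5823 with array weights (main 3795). The 24 h anterior culture had 3962, 3361 and 3455 with array weights, the compared groups alone and quantile normalization (main 6020). The mean cut effect at 12 h had 4653 with array weights (main 3100), and the mean regional difference at 12 h 2041, 898 and 1300 under the same 3 settings (main 571). Under these 3 settings the 24 h culture effect, posterior minus anterior, had 130, 82 and 8 (main 240). Uncut posterior 24 h against 12 h had 2308, 0 and 200 (main 117), so the shares of all probe sets given for these 2 comparisons depend strongly on the setting. The replicate block raised the mean 24 h cut effect on Eip75B 1640781_a_at past the threshold (adjusted p = 0.0308). Alternatives by signal level were not run, since the centred values hold none, and for the same reason signal over background is unknown.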
